A study of Ovis aries with 16 samples.

Results

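Regions of the sheep genome where methylated DNA was called as enriched in a single fetus were described here. Peaks of 16 fetuses were pooled, those sharing at least 1 bp on chromosomes 1 to 26 were merged, and a merged region was kept where all of its peaks came from 1 fetus. This left 185488 of 678678 merged regions, 27.3% of all. Regions with peaks in 2 fetuses, which lie just outside the rule, numbered 78591 (11.6%), and regions with peaks in all 16 fetuses numbered 86181 (12.7%).

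The samples were longissimus dorsi (LD) muscle, the long muscle of the back, of fetuses from Polypay ewes. From mid-gestation until necropsy in late gestation the dams received either hay, given as alfalfa haylage, or a corn diet with a supplement and a little haylage, of equal metabolizable energy. The hay group and the corn group held 8 fetuses each, all of the same tissue, and there was no group without a diet treatment. Each group held female and male fetuses, but the labels do not give the sex of a fetus. Diet was given to the dam, most of the fetuses were twins by the study's own listing, and there were fewer dams than fetuses in each diet. The labels do not say which fetuses share a dam, so the tests below treat fetuses as separate samples. Their p-values are too small as far as fetuses of the same dam resemble each other, which could not be checked. The tissue itself could not be checked against markers, since peak lists of DNA methylation hold no expression.

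In mammals a methyl group is added to cytosine mostly where a guanine follows it, a dinucleotide called CpG, and most such sites in the genome carry it outside CpG-dense promoters. A methyl-binding domain (MBD) protein retains DNA fragments that carry methylated CpGs, and retains those with many such sites best, so that sequencing of the captured DNA shows where methylated CpGs lie close together. A peak is a stretch with more overlapping fragments than a Poisson model predicts. A stretch without a peak is one where too few fragments were found for a call, which can follow from few methylated CpGs or from few reads, and peak lists do not separate these. The depth of the libraries is not in the files analysed here.

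Each region of a single fetus held exactly 1 peak. Together they covered 33630231 bp, 6.79% of the bases under all merged regions, whereas the regions with peaks in all fetuses covered 39.0%.

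Single-fetus regions were narrow. Their width ran from 100 bp, the smallest width of any peak, to 1135 bp, with a median of 166 bp and 10th and 90th percentiles of 111 and 250 bp. The authors called peaks with a fragment length of 250 bp, and 89.96% of the single-fetus peaks were narrower than that length, 3.03% had exactly that width and 7.01% were wider. Over all peaks 250 bp was the commonest width, with 304081 of 6200329 peaks. Peaks under 150 bp made up 39.8% of single-fetus regions and 11.05% of all other peaks, while peaks of at least 500 bp made up 1.66% and 39.8%. Single peaks had a median width of 183 bp in regions with peaks in 2 fetuses and of 736 bp in regions with peaks in all 16.

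**Figure D1:**
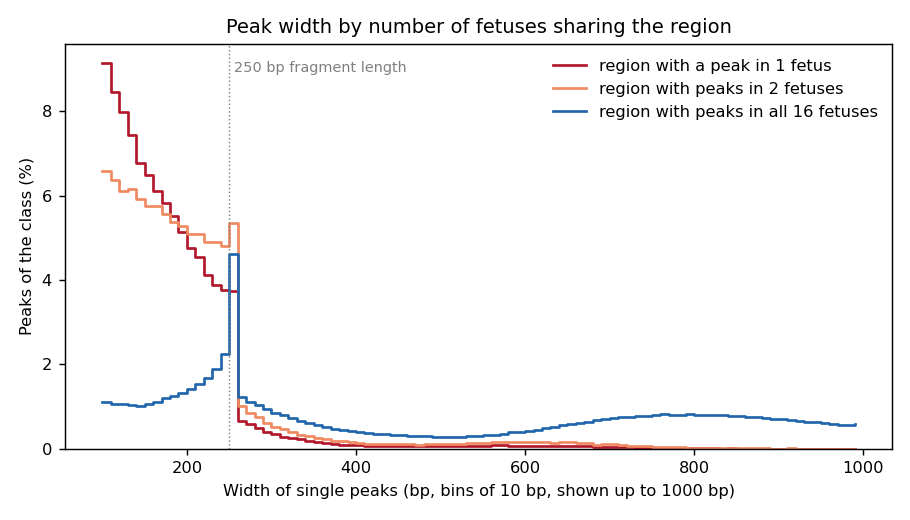
Width of single peaks in bp (x axis, bins of 10 bp up to 1000 bp) against the share of peaks of each class in percent (y axis), for regions with a peak in 1 fetus, in 2 fetuses and in all 16. The curve for 1 fetus is highest at 100 bp and falls with width, with a median of 166 bp, whereas that for all 16 fetuses has a narrow mode at the fragment length of 250 bp (dotted line) and a broad one near 800 bp.

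The score of a peak was taken as −log10 of the value deposited with it, which was read as a p-value. Single-fetus regions had a median score of 1.13, which is a p of 0.0748, with 10th and 90th percentiles of 0.950 and 1.43. A p above 0.05 was held by 147971 of them, 79.8%, compared with 72.3% of the peaks in regions of 2 fetuses, 19.7% of the peaks in regions of all 16 and 36.6% of all peaks. A score of at least 2 was reached by 916 single-fetus regions (0.494%) and by 26.7% of the other peaks, and a score of at least 3 by 19 and by 8.70%. Within the class the median score was 1.06 under 150 bp and 1.44 between 250 and 300 bp, but 1.31 from 300 to under 500 bp and 1.44 from 500 bp, and the share scoring at least 2 was 7.53%, 2.94% and 6.42% in the last 3 of these.

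**Figure D2:**
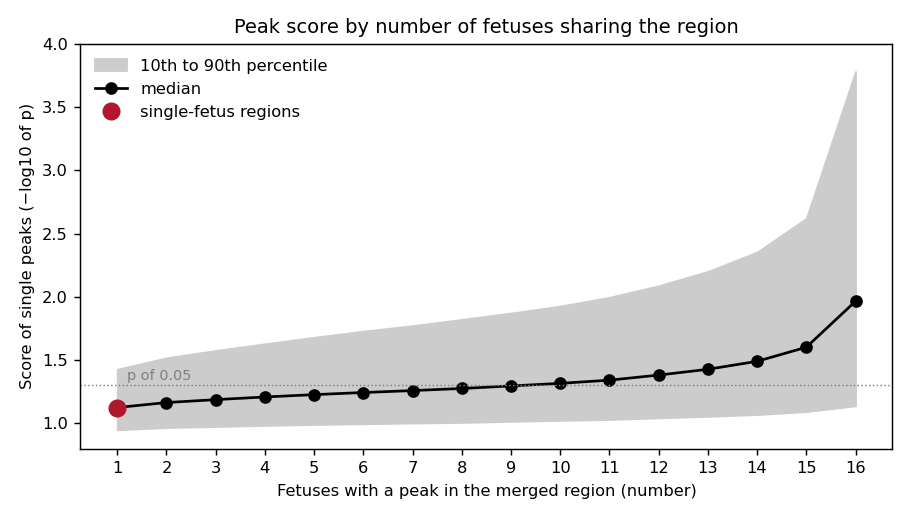
Peak score (−log10 of p, y axis) against the number of fetuses with a peak in the merged region (x axis), as the median (points) with the 10th to 90th percentile of single peaks (grey band). The single-fetus regions, in red, sit lowest at a median of 1.13, and the median stays under the score of a p of 0.05 (dotted line) up to regions of 9 fetuses.

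The same order of classes was seen in every library. In 16 of 16 fetuses the median score of its single-fetus peaks lay below that of its peaks in regions of 2 fetuses, which lay below that in regions of 3 to 15, which lay below that in regions of all 16, and the median width followed the same order in 16 of 16. The class was defined from these same peak calls, so width and score are given as a description without a test. In hay fetus 15 the 4 median scores were 1.146, 1.2003, 1.362 and 1.799. In hay fetus 11 they were 1.02, 1.06, 1.28 and 1.87. A single-fetus peak stood at a median rank between 11.8% and 22.8% among all peaks of its own fetus by score, and 85.0% to 97.7% of a fetus's single-fetus peaks lay below the median score of its own peaks.

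The fetuses contributed very unequal numbers. In the hay group the counts were 45586 in fetus 15, 18597 in fetus 16, 15176 in fetus 8, 14058 in fetus 3, 9892 in fetus 12, 5754 in fetus 5, 1628 in fetus 10 and 1226 in fetus 11. In the corn group the counts were 28081 in fetus 4, 23365 in fetus 7, 6687 in fetus 13, 4244 in fetus 1, 4015 in fetus 6, 2758 in fetus 14, 2284 in fetus 9 and 2137 in fetus 2. Both diets held fetuses with many and with few single-fetus regions, and their ranges overlapped. Hay fetus 15 alone held 24.6% of all single-fetus regions, the 4 fetuses with the most (hay 15 and 16, corn 4 and 7) held 115629 or 62.3%, and the 4 with the fewest held 7275 or 3.92%.

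The number of single-fetus regions moved with the number of peaks called in the fetus. Peaks ran from 251969 in hay fetus 11 to 506610 in hay fetus 15, a ratio of 2.01, while single-fetus regions differed by a ratio of 37.2 between the same 2 fetuses. Over the 16 fetuses Pearson's r was 0.865 and Spearman's rho 0.974, given without a test because both counts come from the same peak calls. Without hay 11 and hay 15, the 2 fetuses farthest from the median number of peaks, r was 0.923. Within diets r was 0.834 for hay and 0.941 for corn. Single-fetus peaks are themselves among the peaks counted, and against the other peaks alone r was 0.812 and rho 0.974. The relation with the median peak width of a fetus was negative (r of −0.50, rho of −0.62). This r was −0.51 without corn 14 and corn 9, the fetuses farthest from the median width, −0.50 within hay and −0.58 within corn. That with the bases under all its peaks had r of 0.430 and rho of 0.518, and r fell to 0.302 without corn 7 and hay 11. How far the number of peaks follows depth was not tested.

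**Figure D3:**
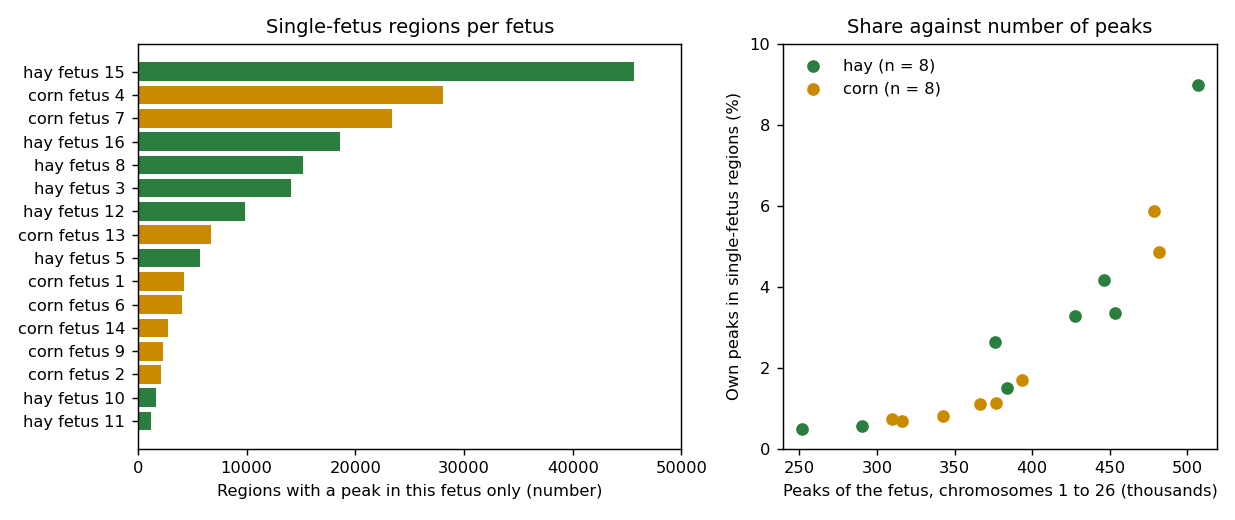
Left, the number of regions with a peak in that fetus only (bar length) for each of 16 fetuses, coloured by diet of the dam. Right, the number of peaks of a fetus (x axis, in units of 1000) against the share of them in single-fetus regions in percent (y axis), 1 point per fetus; the share runs from 0.487% in hay fetus 11, which has the fewest peaks, to 8.998% in hay fetus 15, which has the most.

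Taken by diet, 111917 single-fetus regions (60.3%) came from hay fetuses and 73571 from corn fetuses. Per fetus this was 13990 ± 14249 for hay and 9196 ± 10379 for corn (SD, n = 8 each), a difference below the SD of each group (exact permutation test over 12870 assignments, two-sided, p = 0.483). As a share of a fetus's own peaks the means were 3.12% ± 2.73 for hay and 2.11% ± 2.05 for corn (SD, n = 8 each, same exact test, p = 0.431). Without hay fetus 15 the difference in mean number shrank from 4793 to 305.8, and without corn fetus 4 it grew to 8704, neither past the threshold (exact permutation test, p = 0.963 and 0.257).

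The single-fetus regions of the 2 diets did not differ past the threshold in kind either. The median width per fetus ran from 159 to 174 bp in hay and from 155 to 167 bp in corn, with means of 163.8 ± 4.63 and 161.2 ± 3.95 bp (SD, n = 8 each, exact permutation test, p = 0.269). The median score was 1.10 ± 0.0399 for hay and 1.10 ± 0.0338 for corn (SD, n = 8 each, exact permutation test, p = 0.812). Regions scoring at least as high as the median of the same fetus's peaks in regions of all 16 numbered 1809 in hay and 1167 in corn, or 226.1 ± 326 and 145.9 ± 387 per fetus (SD, n = 8 each, exact permutation test, p = 0.536). Of these, 1103 were in corn fetus 4 and 966 in hay fetus 15, and the other 7 corn fetuses held between 1 and 32. Without corn fetus 4 the means were 313.5 and 12.6 (exact permutation test, unadjusted p = 0.0444, adjusted over the 6 measures 0.267), and without hay fetus 15 they were 177.0 and 218.0 (same test, unadjusted p = 0.981). Of the 16 fetuses left out in turn, only hay fetus 15 turned the direction, while leaving out corn fetus 4 made the difference larger. The median used as the cut ran from 1.58 in hay fetus 12 to 2.84 in corn fetus 14, and was 1.59 in corn fetus 4. At a fixed score of at least 2, corn fetus 4 had 111 regions and corn fetus 7 had 115. Adjusted over the 6 measures compared between diets, the p-values of the exact test lay between 0.643 and 0.812.

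The distance of single-fetus regions from the regions shared by all fetuses was close to that of regions of 2 or 8 fetuses. Its median, from edge to edge, to the nearest region with peaks in all 16 was 12543 bp, beside 12988 bp for regions of 2 fetuses, 11963 bp for regions of 8 and 7244 bp for regions of 15. Within 1 kb lay 10.4% of them, between 1 and 10 kb 34.2%, between 10 and 100 kb 49.3%, and beyond 100 kb 6.08% (11281 regions). The median per fetus ran from 8398 bp in hay fetus 5 to 14478 bp in corn fetus 13. It was shorter for single-fetus regions than for regions of 2 fetuses in 15 of 16 fetuses, corn fetus 7 being the exception, and shorter than for regions of 3 to 15 fetuses in 2 of 16, hay fetuses 5 and 11. By diet the median distance was 11556 ± 2122 bp for hay and 12496 ± 1331 bp for corn (SD, n = 8 each, exact permutation test, p = 0.305). With only the peaks of a score of at least 2 the medians were 161280 bp for hay and 182348 bp for corn (exact permutation test, unadjusted p = 0.0343, adjusted over the 6 measures 0.206).

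They did not lie alone. The nearest merged region of any kind was a median of 243 bp away and held peaks of a median of 2 fetuses, and 51.8% of single-fetus regions had another region within 250 bp. That nearest region was itself a single-fetus region for 41.4% of them, one of the same fetus for 24.4%, and a region of all 16 fetuses for 7.58%. The share with another region within 250 bp was higher for regions of 2, 3 and 4 fetuses (66.7%, 66.6% and 58.8%) and lower for regions of 15 (25.3%).

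The median distance from a single-fetus region to the next one of the same fetus ran from 10270 bp in hay fetus 15 to 418884 bp in hay fetus 11. Those that lay within 1 kb of each other were mostly much closer. Another single-fetus region of the same fetus lay within 1 kb for 48694 members, 26.3%, with between 14.97% in corn fetus 2 and 29.1% in hay fetus 15. The gap was under 500 bp in 97.0% of these, with a median of 241 bp and 10th and 90th percentiles of 142 and 326 bp. Among 24340 such neighbouring pairs the starts of the peaks were a median of 416 bp apart (10th and 90th percentiles 349 and 504 bp), and a pair spanned a median of 596 bp. A peak of the same fetus of any class lay within 500 bp of 45.2% to 63.6% of its single-fetus regions, beside 46.1% to 60.8% of its peaks in regions of 2 fetuses. No 2 peaks of 1 fetus were closer than 100 bp in any of the 16 files. Counted as loci of members chained within 1 kb, the 185488 regions came to 160892.

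The regions named by rule were, in each diet the highest-scoring, the widest and the one farthest from a region of all fetuses. The highest score of a hay fetus was 3.83, at chr17:30796710-30796967 of Oar_v3.1 in hay fetus 15, with a width of 258 bp and 285099 bp from a region of all 16. At 155 bp from it the same fetus had a further single-fetus region, chr17:30796275-30796554, with a score of 3.56, the fourth highest in hay. The highest score of all was 5.69 (a deposited value of 2.05e-06), at chr21:33979534-33980109 in corn fetus 6, with a width of 576 bp and 4132 bp from a region of all 16. This score stood at the 98th percentile of that fetus's peaks, whose peaks in regions of all 16 had a median of 2.66. The next highest corn score was 3.89.

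The widest hay region spanned 1135 bp at chr7:30360554-30361688 in hay fetus 15, with a score of 1.33, only 40 bp from a region of 10 fetuses and 788 bp from a region of all 16. The widest corn region, at chr6:66541602-66542732 in corn fetus 4, spanned 1131 bp with a score of 3.89, and the nearest region shared with any other fetus was 5992 bp away. The farthest ones from a region of all fetuses lay on chromosome 21 in both diets, with 27616 bp between them: chr21:14571049-14571148 in hay fetus 8, 704690 bp away and with a score of 0.943, and chr21:14598765-14598984 in corn fetus 1, 676854 bp away and with a score of 1.05. Among the 100 highest-scoring single-fetus regions 58 came from hay fetus 15 and 70 from hay fetuses, 14 fetuses being represented, and their median width was 302 bp. Which genes these positions hold was not analysed here.

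Single-fetus regions held a similar share of the merged regions on each chromosome. They made up between 26.7% of the merged regions, on chromosome 1, and 29.1%, on chromosome 24. Chromosomes 21 (28.8%) and 22 (27.9%) followed at the upper end, and chromosomes 10 (26.9%) and 14 (26.9%) at the lower end. Their density ran from 69.2 per Mb on chromosome 6 to 88.1 per Mb on chromosome 24, a ratio of 1.27, while that of the regions of all 16 fetuses ran from 27.9 to 48.7 per Mb, a ratio of 1.75. The share of a fetus's single-fetus regions on a chromosome was compared with the share of its other peaks there, and 0 of 26 chromosomes (0.0%) passed (exact sign permutation test over 16 fetuses, Benjamini-Hochberg adjusted, smallest adjusted p = 0.289); 3 of them, chromosomes 4, 8 and 21, had an unadjusted p under 0.05. Between diets 0 of 26 (0.0%) passed (exact permutation test, smallest adjusted p = 0.109). Chromosomes 19 and 23 had unadjusted p of 0.0042 and 0.0334, with mean shares of 2.22% in hay and 3.12% in corn for chromosome 19 and of 3.19% and 2.29% for chromosome 23. The lowest peak scores listed, described below, ran from 0.930 to 1.09 in hay and 0.873 to 1.02 in corn on chromosome 19. On chromosome 23 they ran from 0.881 to 1.07 in hay and 0.909 to 1.09 in corn. How far the shares of the diets follow these lowest scores was not tested.

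Chromosome X, outside the rule, did stand apart. It held 8385 single-fetus regions among 27433 merged regions (30.6%), with a median width of 172 bp. When it was added as a further chromosome, 1 of 27 (3.7%) passed, X itself: it took 4.59% ± 1.43 of a fetus's single-fetus regions and 3.24% ± 0.386 of its other peaks (SD, n = 16), higher in 15 of 16 fetuses (exact sign permutation test, adjusted p = 0.00659). The lowest score listed on X was 0.888 to 1.12 over the fetuses. The counts per fetus on X were 565.5 ± 455 for hay and 482.6 ± 635 for corn (SD, n = 8 each, exact permutation test, p = 0.776). Both sexes were present and the labels do not give the sex of a fetus, so how far these values on X follow sex was not tested.

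The lowest score at which a peak was listed differed between chromosomes of the same fetus. Over the 416 combinations of fetus and chromosome it lay between 0.869 and 1.195, which are p-values of 0.1352 and 0.0638. Within each of the 16 fetuses the share of peaks on a chromosome that were single-fetus regions was lower where that lowest score was higher: r over the 26 chromosomes lay between −0.91 and −0.58, given as a description, since the chromosomes share a library. In hay fetus 8, 5.06% of the peaks on chromosome 9 were single-fetus regions, with a lowest score of 0.914, and 2.18% of those on chromosome 4, with a lowest score of 1.04. In hay fetus 11 the share was 1.07% on chromosome 11 and 0.189% on chromosome 8, with lowest scores of 0.884 and 1.16. The highest share of a chromosome was 1.70 to 5.66 times the lowest within a fetus, with a median of 2.59. Of all single-fetus regions 64.4% had a score below 1.195, the highest of these lowest scores, compared with 24.8% of other peaks.

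With only the peaks at or above that score, a restriction chosen after seeing the data, 140356 single-fetus regions were found among 536487 merged regions (26.2%), with a median width of 215 bp and a median score of 1.34. The relation to the original lowest score then turned positive in 16 of 16 fetuses, with r between 0.155 and 0.853, and the ratio of the highest to the lowest share lay between 1.45 and 3.64, with a median of 2.07. The number per fetus still ran from 674 in hay fetus 11 to 31336 in hay fetus 15.

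**Figure D4:**
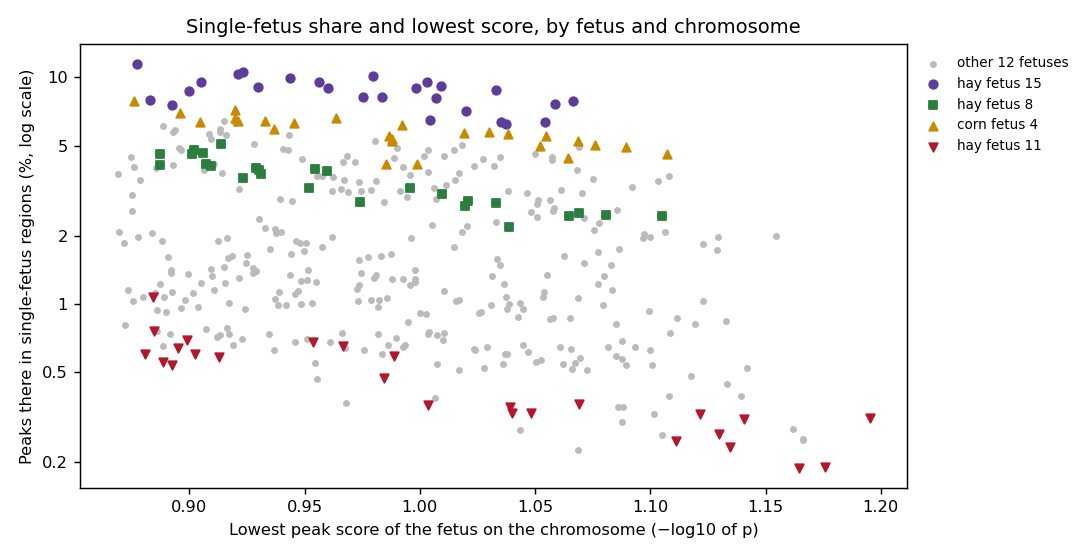
Lowest peak score listed for a fetus on a chromosome (−log10 of p, x axis) against the share of its peaks there that are single-fetus regions (percent, log scale, y axis), 1 point for each of 416 combinations of fetus and chromosome, with 4 fetuses marked. Within each marked fetus the points tend to fall from left to right, with scatter (r of −0.91 in hay fetus 8 and −0.58 in hay fetus 15). The fetuses lie at different heights, hay fetus 15 between 6.20% and 11.4% and hay fetus 11 between 0.189% and 1.07%.

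In the distal 2 Mb of the chromosomes single-fetus regions, like regions of 2 or 8 fetuses, were scarce and regions of all fetuses were dense. Sheep autosomes are mostly acrocentric, with the centromere near the start of the sequence, and the end of the last peak was taken as the chromosome's end. In the last 1 Mb there were 45.5 single-fetus regions per Mb, 14.2% of the merged regions there, and 154.5 regions of all 16 per Mb. From 2 to 5 Mb there were 80.0 and 122.5 per Mb, and from 5 to 10 Mb 95.1 and 67.3 per Mb. From 10 to 20 Mb there were 87.7 and 35.0 per Mb. Beyond 20 Mb there were 73.3 and 26.3 per Mb, and single-fetus regions were 28.3% of merged regions. Between 2 and 20 Mb both classes were thus denser than beyond 20 Mb. The last 2 Mb held 1.37% of the single-fetus regions, 1.246% of the regions of 2 fetuses, 1.49% of those of 8 and 9.30% of those of all fetuses, on 2.12% of the length. At the other end the order was alike but the contrast smaller. The first 2 Mb held 1.65%, 1.67%, 1.68% and 3.45% of the same classes. The last 10 Mb held 9.72% (corn fetus 13) to 16.4% (hay fetus 5) of a fetus's single-fetus regions, below the share of its other peaks in 12 of 16 fetuses, and did not differ between diets past the threshold (13.1% ± 2.70 for hay and 12.7% ± 1.92 for corn, SD, n = 8 each, exact permutation test, p = 0.698). This share was lower in fetuses with more single-fetus regions (Spearman's rho of −0.785 over the 16 fetuses, a description without a test). Fetuses with many such regions weigh most in the pooled densities above.

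Along the chromosomes the counts varied less than those of regions of all 16 fetuses. In 2441 windows of 1 Mb there were between 9 and 144 single-fetus regions, with a median of 76 and a coefficient of variation of 30.7%, compared with 104.9% for regions of all 16. Windows with 0 to 7 regions of all 16 held 49.4 ± 13.1 single-fetus regions (SD over 303 windows), those with 51 to 86 held 98.5 ± 16.7 (246 windows), and those with 87 or more held 78.0 ± 26.3 (242 windows). The densest windows of 1 fetus were chr3:201000001-202000000 and chr7:16000001-17000000 in hay, where hay fetus 15 had 48 of 125 and 48 of 144 single-fetus regions, and chr17:53000001-54000000 in corn, where corn fetus 4 had 37 of 102. Hay fetus 15 had none in 1 window, whereas hay fetus 11 had none in 1613.

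**Figure D5:**
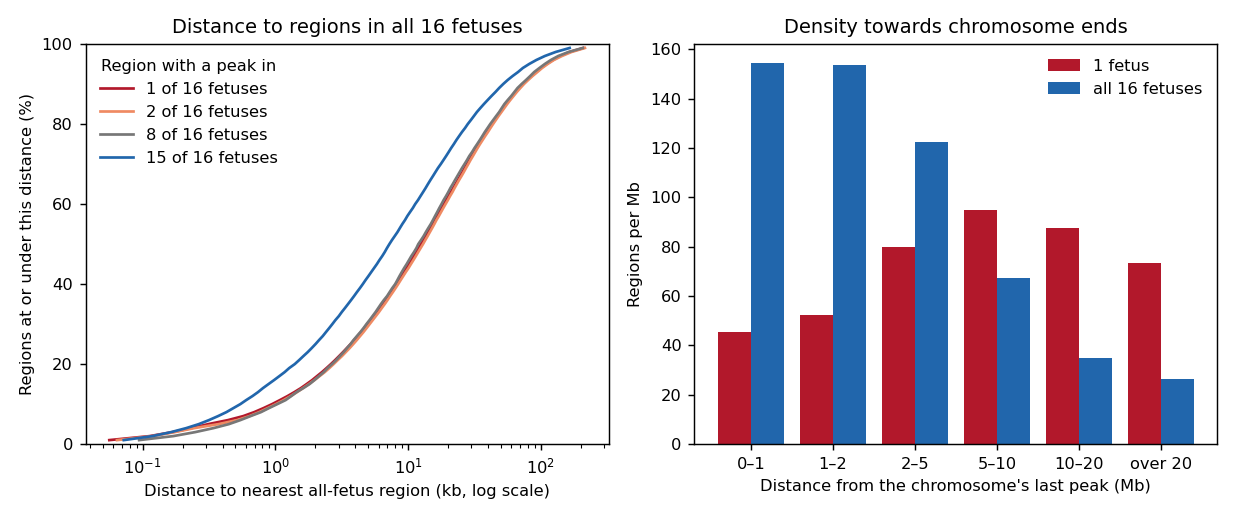
Left, cumulative share of regions (percent, y axis) within a distance of the nearest region of all 16 fetuses (kb, log scale, x axis), for regions with a peak in 1, 2, 8 and 15 fetuses; the curves for 1, 2 and 8 nearly coincide at medians of 12543, 12988 and 11963 bp, and that for 15 lies to the left. Right, regions per Mb by distance from the chromosome's last peak, for single-fetus regions and regions of all 16; the former are at 45.5 per Mb in the last 1 Mb, where the latter are at 154.5.

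Regions of 2 fetuses, the nearest class, were formed by all 120 pairs of fetuses. Pairs within hay accounted for 22667 of them, pairs within corn for 12380 and mixed pairs for 43544, from 28, 28 and 64 pairs, with medians of 409.0, 259.5 and 267.5 regions per pair.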

How the data were processed

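LD muscle DNA was sonicated, enriched with an MBD kit and sequenced as paired ends. Before deposit, the authors used Trimmomatic 0.33 for trimming, BWA 0.7.15 for alignment to Oar_v3.1, Picard 1.107 for duplicate removal and ChIPseeqer for peak calling in each fetus (read length 101 bp, fragment length 250 bp). A threshold or input control is not given in the sources used here. The deposited lists give the position of every peak and a value read as its p-value, between 0 and 0.1352; 0 (1243 peaks, none in a single-fetus region) was set to 1e-100. A region counts as single-fetus where no other fetus passed the caller's limit, so that limit bears on every such call.

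Peaks were merged and counted with pandas 2.3.3, scipy 1.17.1 and numpy 2.4.6 under Python 3.11.15, checked on simulated peaks. Diets and chromosomes were compared by exact permutation tests over 16 fetuses, adjusted by Benjamini-Hochberg with a threshold of 0.05, and correlations were given without a test. Members, lists and tests were chosen with earlier results of these data known. Named regions were, per diet, the highest-scoring, the widest and the farthest from a region of all fetuses, and the 1-Mb window richest in members of 1 fetus; the chromosomes were the 3 highest and 3 lowest by share of members. Alternatives were other merging, overlap and score limits, equal numbers of peaks, chromosome X, and each fetus left out. CpG content and genes were not analysed, since no genome of Oar_v3.1 was used here.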

Additional observations from a re-analysis of the deposited data

Results flagged for a closer look

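Within a diet of 8 fetuses, a fetus was singled out where its gap to the nearest other one exceeded 0.526 of the range of the group. Of 16 groups of values examined 4 held such a fetus. A chance rate of about 1 in 20 would need independent groups of normally distributed values. The measures overlap and the counts are skewed, so the number flagged cannot be set against that rate. Hay fetus 15 stood apart with 45586 single-fetus regions (the next hay fetus had 18597) and with 8.998% of its own peaks in such regions (the next 4.17%). It also stood apart with 966 regions scoring at least as high as the median of its peaks in regions of all fetuses (the next 338). Corn fetus 4 stood apart in that last count, with 1103 (the next corn fetus had 32). The cut of that count differs by fetus, and was 1.59 in corn fetus 4 and 2.27 in corn fetus 7. At a fixed score of at least 2 these had 111 and 115 regions, so corn fetus 4 did not stand apart there. Hay fetus 15 had 388 at that fixed score, and hay fetus 8 had 64.

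The 8385 single-fetus regions on chromosome X lie outside the main counts, which used chromosomes 1 to 26. They were 54 to 1837 per fetus, the most being in corn fetus 4.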

How the results depend on the processing

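Apart from the main one, 7 settings were tried beside leaving out each fetus, 1 of them (peaks at or above a score of 1.195 only) chosen after seeing the data. The number of single-fetus regions was 116337 with 251969 highest-scoring peaks from every fetus, 101273 with peaks up to 250 bp apart merged and 65274 with a score of at least 2. It was 176707 to 191269 with 1 fetus left out. Where a peak counted as shared only if others covered at least 50% of it, single peaks were counted instead of merged regions, and they numbered 286925. The median width of the regions, or of the peaks under 50% cover, was 237, 620, 213, 215 and 178 bp with equal numbers, a score of at least 2, of at least 1.19 (the 25th percentile) and of at least 1.195, and 50% cover. Their median score was 1.47, 2.20, 1.33 and 1.34 under the first 4 of these. Their median distance to a region of all fetuses was 24719, 166188, 20900 and 21329 bp under these 4 and 14713 bp with merging over 250 bp.

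Hay minus corn turned to −828.5 regions (exact permutation test, p = 0.572) and −0.099 percentage points with a score of at least 2, and the difference in width to −5.38 bp with equal numbers and −45.9 bp with a score of at least 2. The difference in distance reached −21068 bp with a score of at least 2 (exact permutation test, unadjusted p = 0.0343, against 0.0805 to 0.296 under the other 6; adjusted over the 6 measures 0.206). The cause of these was not tested. With chromosome X added 1 chromosome passed. The other settings among these 7 kept direction and side of the threshold for the comparisons by diet and by chromosome, and no adjusted p of the 6 measures by diet was under 0.05 in any setting. The relation with the number of peaks stayed positive, and could not be computed with equal numbers.

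With 1 fetus left out, hay minus corn ranged from 305.8 to 8704 regions, 0.214 to 1.80 percentage points, 1.12 to 3.73 bp in width, −0.0126 to 0.0069 in score (turned by leaving out corn 4, 0.000048, corn 7, 0.0016, or hay 11, 0.0069), −1204 to −396 bp in distance, and −41.0 (without hay 15) to 300.9 (without corn 4) high-scoring regions, and r with the number of peaks from 0.849 to 0.897. With equal numbers the count per fetus ran from 3372 in corn 14 to 17887 in hay 15, and with a score of at least 2 the highest was 10559 in corn 7. Of the 6 named regions, the highest-scoring of each diet and the widest of corn remained single-fetus regions under all 7 settings, the widest of hay under 4 and the farthest of each diet under 3. No paired analysis of hay against corn was possible, because each dam received either hay or corn and no dam had fetuses in both groups.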
